A study of Mus musculus with 16 samples.

Results

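The replication licensing genes are 10 of the 19707 genes listed in at least 1 of 3 deposited tables, taken by symbol: Mcm2, Mcm3, Mcm4, Mcm5, Mcm6, Mcm7, Mcm10, Cdt1, Cdc6 and Gins2. All 10 are listed in each table. After infusion of angiotensin II and phenylephrine, Mcm6 was 2.88-fold lower in cardiac fibroblasts with Tcf21 deleted, which kept some Tcf21 RNA, than in their controls, while none of the other 9 members passed the test. With added TCF21, all 10 were above control on average, and Mcm2 alone passed, in a call that 4 of 5 fits with 1 library left out did not keep.

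Licensing prepares each origin of replication to fire in the next S phase. The origin recognition complex, with CDC6 and CDT1, loads a ring of 6 related helicase subunits, MCM2 to MCM7, around DNA in G1. CDC45 and the GINS complex then join the ring, and MCM10 helps to switch the helicase on. Cells that leave the cycle lose much of this machinery, and in proliferating cells E2F factors drive transcription of many of its genes. Fibroblasts of the resting adult heart divide little, and they proliferate for a time after injury or pressor infusion.

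Fibroblasts were sorted by EGFP from hearts of mice that were 8 to 12 weeks old. All mice carried a Rosa26 reporter with a loxP-flanked stop before EGFP, and all received tamoxifen. The loss arm compared Tcf21-MerCreMer:Tcf21-fl with Tcf21-MerCreMer, in uninjured hearts 2 weeks after tamoxifen (3 loss and 3 control libraries) and after 1 week of infusion of both agonists (2 loss and 3 control libraries). The gain arm compared Pdgfra-creERT:Col1a1-TCF21 with Pdgfra-creERT after the same infusion (2 gain and 3 control libraries). Sorted cells were therefore those in which the Tcf21 or the Pdgfra driver had been active, and each arm has its own Cre control. No label says whether libraries came from separate animals or from pools, so each p-value is set against library-to-library spread alone, which may be technical.

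The values are normalized counts, and each comparison lies within 1 table that the authors normalized on its own. Library sums ran from 27814940 to 40970391. Tcf21 held 1244, 1254 and 1718 normalized counts in uninjured loss libraries against 7825, 8081 and 7507 in their controls, 258 and 185 in infused loss libraries against 2814, 1802 and 1509.8, and 14819.6 and 13502 in gain libraries against 6058, 5145 and 6235. It moved as labelled in every library. The 7 fibroblast markers (Col1a1, Col1a2, Col3a1, Pdgfra, Dcn, Lum and Gsn) summed to between 2925680 and 4568500 per library and none was at 0. Of 8 lists for other cells, mural markers summed to 3620 to 16345 normalized counts, myeloid markers to 461 to 4934 and endothelial, cardiomyocyte, lymphoid, Schwann, epicardial, and erythroid and platelet markers to at most 1079.

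The genes lie on 7 chromosomes (GENCODE vM21, GRCm38). Mcm6 (ENSMUSG00000026355) spans chr1:128331590-128359664 on the minus strand and Mcm3 chr1:20802968-20820312, also minus. Mcm2 (ENSMUSG00000002870) spans chr6:88883474-88898780, minus, and Mcm5 (ENSMUSG00000005410) chr8:75109569-75128439, plus. On chromosome 8 there are also Cdt1 (122568015 to 122573554, plus) and Gins2 (120578633 to 120589304, minus). Mcm4 is at chr16:15623897-15637400 (minus), Mcm7 at chr5:138164583-138172422 (minus), Mcm10 at chr2:4989714-5012791 (minus) and Cdc6 at chr11:98907801-98923940 (plus). Mcm7 overlaps Cops6 by 64 bases and Ap4m1 by 421 bases on the opposite strand, and holds 3 microRNA genes (Mir25, Mir93 and Mir106b) on its own strand. Gins2 overlaps Gse1 by 2758 bases on the opposite strand. Gm20388, which none of the tables lists, covers all of Cdt1 on the same strand (5540 bases) and all of Gins2 on the opposite strand (10672 bases). Whether counting used strand is not given in the sources used here, so reads in these overlaps may be shared. Mcm6 overlaps no annotated gene.

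Upstream sequences are shown for Mcm6 and Mcm2, the members past the test, and for Mcm5, whose window holds the same kind of E2F word as that of Mcm6. RefSeq start windows on GRCm38.p6 matched 8 of the 10 members, with 2 starts for Mcm7. The 250 bases before each start were searched on both strands for the E2F words TTTCCCGC or TTTGGCGC or TTTCGCGC or TTTGCCGC. Capitals mark every match, and words that overlap run together. The Mcm6 window is chr1:128359706-128359955, minus strand, the Mcm5 window chr8:75109259-75109508, plus strand, and the Mcm2 window chr6:88898781-88899030, minus strand, each printed in the direction of the gene.
Mcm6: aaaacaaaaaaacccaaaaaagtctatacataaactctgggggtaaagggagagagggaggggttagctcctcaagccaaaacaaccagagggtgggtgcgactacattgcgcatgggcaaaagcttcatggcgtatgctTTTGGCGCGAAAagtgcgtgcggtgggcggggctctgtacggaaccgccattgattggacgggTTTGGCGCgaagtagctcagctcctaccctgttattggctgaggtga
Mcm5: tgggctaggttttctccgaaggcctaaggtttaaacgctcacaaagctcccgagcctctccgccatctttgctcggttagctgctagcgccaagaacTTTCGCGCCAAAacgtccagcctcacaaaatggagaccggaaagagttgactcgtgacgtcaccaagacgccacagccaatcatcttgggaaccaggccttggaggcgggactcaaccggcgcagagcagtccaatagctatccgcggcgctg
Mcm2: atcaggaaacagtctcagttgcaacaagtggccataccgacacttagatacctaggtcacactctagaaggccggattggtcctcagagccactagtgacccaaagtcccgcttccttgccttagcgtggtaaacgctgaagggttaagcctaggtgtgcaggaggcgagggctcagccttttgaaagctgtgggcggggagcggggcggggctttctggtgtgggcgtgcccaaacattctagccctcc

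Mcm6 had 3 E2F words, starting 110, 106 and 47 bases before its start, of which the words at 110 and 106 overlap on opposite strands. Mcm5 had an overlapping pair of the same kind at 153 and 149 bases. Cdc6 had 1 word at 138 bases and Mcm7 1 at 165 bases before the more upstream of its starts. Mcm2, Mcm3, Mcm10 and Cdt1 had none in this window. Such a word was in 4 of 9 member windows and in 1.86% of all 32851 windows. CCAAT was in 7 of 9 member windows (33.8% of all), and TTTGAA or TTCGAA, the words of the cell cycle homology region, in 2 of 9 (17.1% of all). The E-box word CAGCTG was in 0 of 9 (13.0% of all). A match describes these letters and shows no bound site.

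The gain comparison asks how added TCF21 changes cells of the infused heart. Of 10 members tested, 1 rose (Mcm2), 0 fell and 9 did not pass limma at adjusted p below 0.05, where 4.14% of all 15369 genes tested passed in either direction. All 10 had a positive log2 fold change, as did 51.0% of all genes tested, at a median of 0.68 against 0.0066 over all genes. In 9 of 10 both gain libraries were above every control, where 19.1% of all genes were, and 7 of 10 were higher at an unadjusted p below 0.05, where 8.93% of all genes were. In bulk RNA a larger share of cells that express these genes and more RNA of them per cell cannot be told apart.

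Among the helicase subunits, Mcm2 had 1103 and 1366 normalized counts in gain libraries, against 709, 604 and 397 in controls. The groups did not overlap, and Mcm2 was 2.17-fold higher by ratio of means, at 1235 ± 186 normalized counts with gain and 569.8 ± 159 in controls (SD, n = 2 and 3). Its log2 fold change was 1.15 (SE 0.242, 95% interval 0.58 to 1.71, limma adjusted p = 0.0473). That call was close to the threshold and was lost in 4 of 5 fits that left out 1 library (all but Cre control 3), where the log2 fold change ran from 0.91 to 1.32. Mcm5 had 932 and 1382 normalized counts in gain libraries against 740.3, 564 and 403 in controls, also with no overlap (log2 fold change 1.04, 95% interval 0.40 to 1.67, limma adjusted p = 0.0851). Mcm6 had 3276 and 3897 against 2864, 2601 and 2007 (0.54, 0.16 to 0.91, adjusted p = 0.121). Both gain libraries were above all controls for it. Mcm3 held 1335 and 1660.1 normalized counts against 1098, 1204 and 781, and Mcm7 held 1076 and 1301 against 976, 928 and 889. Their log2 fold changes were 0.56 (95% interval 0.099 to 1.02) and 0.35 (0.070 to 0.62). Mcm4 moved least, with 1733 and 1741 in gain libraries against 1657, 1475 and 1543 in controls (0.16, -0.058 to 0.37).

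The loaders and activators lay at lower counts and were more variable. Cdt1, which brings the helicase ring to the origin, had 150.2 and 191 normalized counts in gain libraries against 105, 119.6 and 73.3 in controls (log2 fold change 0.80, 95% interval 0.14 to 1.46). Cdc6, the ATPase that acts beside it, had 139 and 173 against 123, 61.4 and 50.2 (1.09, 0.15 to 2.02). For both, each gain library was above each control, Cdc6 by a narrow margin over Cre control 1. Mcm10 had 108 and 138 normalized counts in gain libraries against 74.3, 51.4 and 4.07 in controls. Its log2 fold change of 2.18 (95% interval -0.29 to 4.66) fell to 0.97 without Cre control 3, the library at 4.07. Gins2, a subunit of GINS, had 193 and 291 against 219, 149 and 133, and here the groups overlapped. None of these 4 passed (limma adjusted p 0.175 to 0.348).

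**Figure D1:**
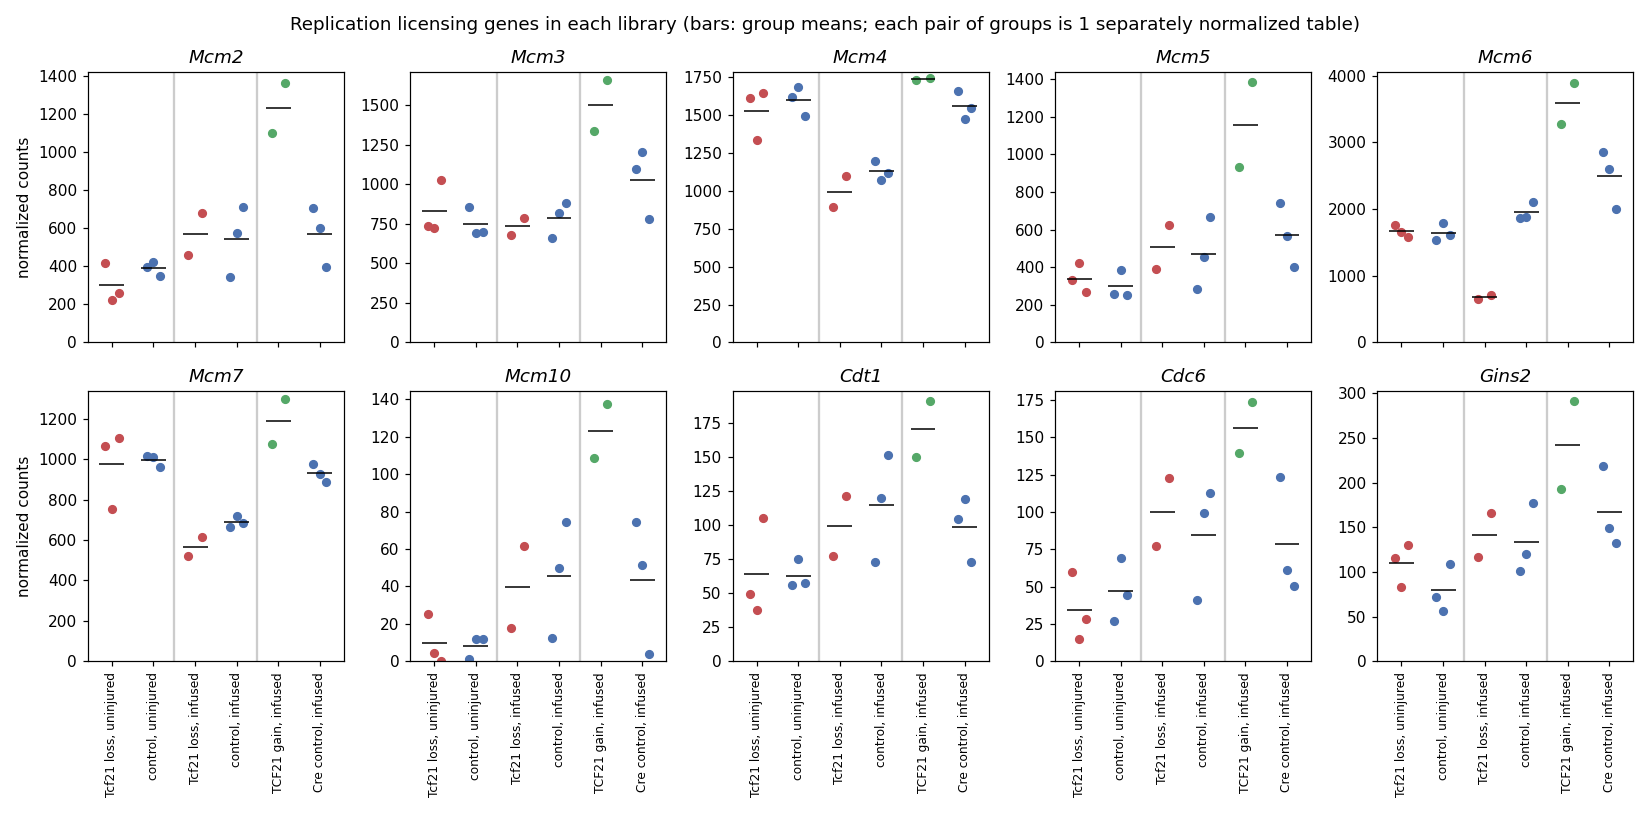
Normalized counts (y axis, from 0, its own scale in each panel) of the 10 members in all 16 libraries, 1 point a library, with group means as bars; grey lines part the 3 tables, which were normalized separately. The infused loss libraries of Mcm6 (647 and 708) lie far below their controls (1861 to 2114), and gain libraries lie above their Cre controls for every member but Gins2.

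The controls of the gain arm differed among themselves on these genes. The median difference of the members from the control mean, on the log2 scale, was 0.52 and 0.90 in gain libraries against 0.29, 0.055 and -0.39 in controls. All 10 members were above the control mean in both gain libraries and in Cre control 1, and 0 were in Cre control 3. The median log2 fold change of the members was 0.49 to 0.90 with 1 library left out, and 9 or 10 members were then above every control.

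Markers of the cycle were on the same side as the licensing genes in the gain arm, though none passed. On the list of mitosis markers, 0 of 17 tested members passed, at a median log2 fold change of 1.44, with all 17 positive (51.0% of all genes) and above every control in both gain libraries (19.1% of all genes). The list lay at 1.57 and 1.31 in gain libraries against 0.75, 0.29 and -1.10 in controls, as log2 differences from the control mean. Bub1, a spindle checkpoint kinase, averaged 393 against 140.1 normalized counts and Ccnb1 (cyclin B1) 1564 against 554 (limma adjusted p = 0.0830 and 0.0856). Fibroblast markers summed to 2995960 to 3245550 in gain libraries against 4274980 to 4568500 in controls (0 of 7 rose or fell). Dcn, Lum and Col1a2 were below every control, while Col1a1, Col3a1, Gsn and Pdgfra overlapped. Pdgfra averaged 19929 normalized counts with gain against 18288 in controls. Sums of myeloid markers overlapped, at 2626 to 4934 against 2225 to 3541 normalized counts. Those of endothelial markers did too, at 227 to 708 against 222 to 395. In these lists 0 of 10 and 0 of 7 members passed, and none was at 0 in any library. The median log2 fold change was 0.72 for the myeloid and 0.23 for the endothelial list. Ptprc, Csf1r, Fcgr1 and Tyrobp were above every control and Cd74 below, while the other myeloid members overlapped. Vwf and Emcn were above every control, and the other endothelial members overlapped. Cardiomyocyte markers were at 839.6 to 880.2 against 573 to 685, with 1 of 6 tested members risen (Actc1). Within that list Actc1 averaged 311 against 130.05, Tnnt2 365 against 282 and Ttn 57.3 against 31.5 normalized counts, while Myh6 averaged 75.4 against 111, Myl2 22.8 against 38.8 and Tnni3 20.6 against 32.4, and the list median was -0.069. Sums of erythroid and platelet markers did not overlap, at 201 to 283 against 72.4 to 134. In that list 0 of 4 tested members passed, at a median log2 fold change of 1.66. Pf4 was above every control, as was Hbb-bt, which was below the filter on low values. Hba-a1, Hba-a2, Hbb-bs and Alas2 overlapped. The part of these cells in the licensing values was not tested.

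Other genes of replication were mostly on the same side in gain fibroblasts. Of the helicase activation genes 0 of 12 passed, 11 had a positive log2 fold change and the median was 0.50. Wdhd1, which ties the helicase to DNA polymerase alpha, averaged 262 against 139 normalized counts, and Cdc7, the kinase that phosphorylates the loaded ring, 391 against 236 (limma adjusted p = 0.139 and 0.150). Of the fork and DNA synthesis genes 0 of 28 passed, 27 were positive and the median was 0.38. Rfc5, a subunit of the clamp loader, averaged 677 against 471 normalized counts (adjusted p = 0.0551). Uhrf1, which carries DNA methylation through replication, averaged 888 against 357, and Pcna, the sliding clamp, 1649.7 against 1253 (adjusted p = 0.0936 and 0.0927). The origin recognition and loading list gave 0 of 15 past the test at a median of 0.19, with Orc1, the largest origin recognition subunit, at 37.9 against 11.8 normalized counts (adjusted p = 0.166). The E2F, RB and cyclin list gave 0 of 21 at a median of 0.19. There Tfdp2, a DNA-binding partner of E2F factors, averaged 1588 against 2128 (adjusted p = 0.0538). Ccna2 (cyclin A2) averaged 1996 against 774 and the transcription factor Mycn 398 against 179, while Rbl2, the RB relative p130 found in resting cells, averaged 3307 against 4287 (adjusted p = 0.117, 0.0617 and 0.0701). Of 11 G1 regulators 1 rose, Ccnd1 (cyclin D1), 2.37-fold higher at 1112 against 469 normalized counts (adjusted p = 0.00713), and the median of that list was -0.073.

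**Figure D2:**
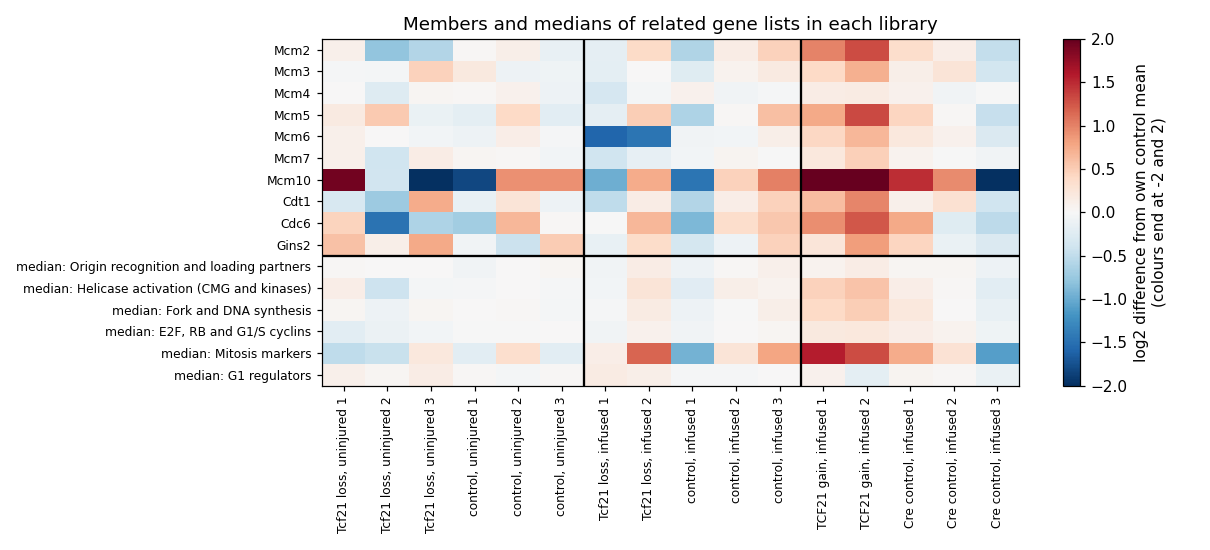
Log2 differences from the control mean of the same table (colour, ending at -2 and 2) for the 10 members (upper rows) and for the medians of 6 related gene lists (lower rows) in each of the 16 libraries, in 3 blocks by table. Members and mitosis markers are high in both gain libraries, and Mcm6 stands apart from the other members in both infused loss libraries (-1.59 and -1.46).

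Loss of Tcf21 under infusion asks what the factor does in an injured heart. Of 10 members tested, 0 rose, 1 fell (Mcm6) and 9 did not pass, where 0.912% of all 14799 genes tested passed. Mcm6 had 647 and 708 normalized counts in loss libraries, against 1861, 1877 and 2114 in controls. The groups were far apart and each was tight. Mcm6 averaged 677 ± 42.9 normalized counts in loss libraries and 1951 ± 142 in controls (SD, n = 2 and 3), a log2 fold change of -1.52 (SE 0.105, 95% interval -1.77 to -1.27, limma adjusted p = 0.00172). It passed in all 14 alternative fits, with adjusted p from 0.000113 to 0.0380 and log2 fold changes from -1.59 to -1.46. With 1 loss library left out, the lone one left was assumed to vary as the controls did.

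None of the other subunits of the ring passed. Mcm7 held 520.5 and 613 normalized counts in loss libraries against 667, 718 and 686 in controls, the only other member without overlap (log2 fold change -0.29, 95% interval -0.57 to -0.0033, limma adjusted p = 0.307). Both loss libraries were below every control in 2 of 10 members and in 17.7% of all genes, and above every control in 0 of 10 members and in 17.3% of all genes. Mcm4 had 895 and 1094 against 1198, 1071 and 1114 (-0.19, -0.47 to 0.10). Mcm2 had 459 and 679 against 344, 574 and 712, and Mcm5 had 391 and 622 against 287, 452 and 668. In these 2 genes the loss libraries lay among the controls, as they did for Mcm3 (681 and 788 against 659.6, 817 and 882). The log2 fold changes and 95% intervals were 0.10 (-0.66 to 0.86) for Mcm2, 0.16 (-0.71 to 1.02) for Mcm5 and -0.091 (-0.46 to 0.27) for Mcm3.

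The loaders and activators also overlapped after infusion. Cdt1 had 77.4 and 122 normalized counts in loss libraries against 73.0, 120.2 and 152 in controls, and Cdc6 had 77.0 and 123 against 41.1, 99.3 and 112. Mcm10 had 18.0 and 61.5 against 12.5, 50.1 and 74.3, and Gins2 had 117 and 166 against 101, 120.0 and 178. Loss library 1 was the lower and loss library 2 the higher for each of the 10 members, and control 1 was the lowest of the controls for 9 of them, all but Mcm4. The intervals of these log2 fold changes were wide, from -0.79 to 1.44 for Cdc6 and from -2.08 to 1.85 for Mcm10. The median log2 fold change of the 10 members was -0.10 (0.00017 over all genes tested), and it ran from -0.26 without loss library 2 to 0.25 without loss library 1.

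Within the ring, Mcm6 changed its place. As a share of the summed level of Mcm2 to Mcm7, each in normalized counts per kb of its longest annotated transcript, Mcm6 made up 14.6% and 12.7% in infused loss libraries, against 31.4%, 28.6% and 28.8% in their controls. In the gain arm it made up 29.2% and 28.8% in gain libraries against 30.02%, 29.7% and 27.9% in controls, and in uninjured hearts 24.7%, 27.1% and 22.1% in loss libraries against 22.2%, 24.8% and 24.9%. The 2 infused loss libraries were therefore the lowest of the 16. This share does not depend on how a library was scaled, and it was computed after the values of Mcm6 were seen. The mean log2 difference of the other 5 subunits from the control mean was -0.26 and 0.14 in these libraries, within the range of the controls (-0.28, 0.044 and 0.24).

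**Figure D3:**
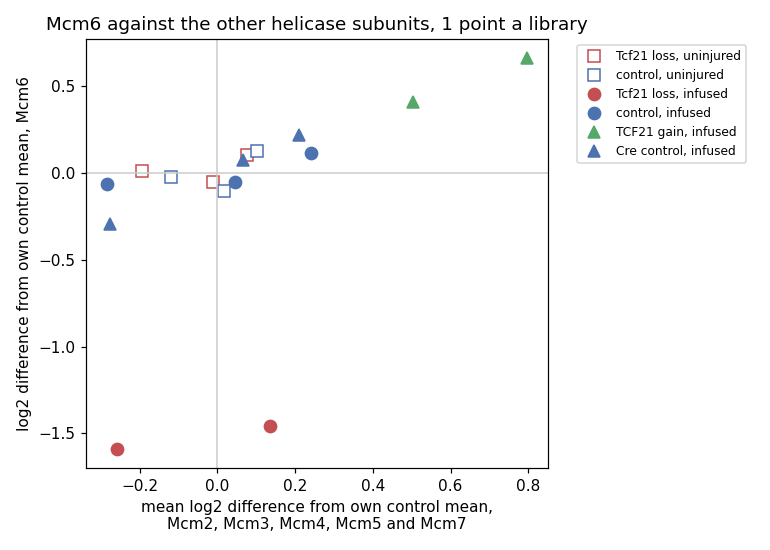
Log2 difference of Mcm6 from the control mean of its table (y axis) against the mean log2 difference of Mcm2, Mcm3, Mcm4, Mcm5 and Mcm7 (x axis), 1 point for each of the 16 libraries, with colour and shape for the group. The 2 infused loss libraries sit at -1.59 and -1.46 on the y axis, and the other libraries lie between -0.30 and 0.66.

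Genes on the downstream side of Mcm6 on chromosome 1 were examined after its values were seen. Within 500 kb on that side, 5 genes were tested in the infused loss comparison and 0 passed. Ubxn4, the nearest, averaged 2063 normalized counts in loss libraries against 1891 in controls (log2 fold change 0.12, 95% interval -0.086 to 0.34). R3hdm1, Zranb3, Rab3gap1 and Map3k19 had log2 fold changes of 0.0045, -0.097, -0.073 and -0.33. The control level of Mcm6 was 1647 in the uninjured, 1951 in the infused loss and 2491 in the gain table, which share no scale. Some markers of blood cells differed in the same libraries. Myeloid markers summed to 461 to 756 normalized counts in loss libraries against 852 to 995 in controls, with 1 of 7 tested members fallen (Cd74). Among those tested, Cd74 (50.8 against 256 on average), Cd68 and C1qb were below every control. Lyz2 (376 against 373), Csf1r, C1qa and Tyrobp overlapped. Adgre1 was at 0 in both loss libraries and in 2 of 3 controls. Erythroid and platelet markers summed to 183 to 504 against 71.1 to 78.6, with 1 of 5 tested members risen (Hba-a1). The part of such cells in the Mcm6 value was not tested.

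**Figure D4:**
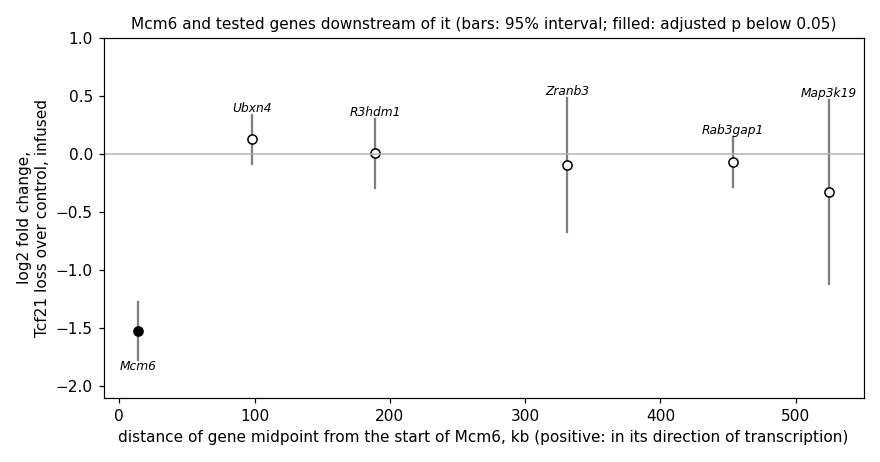
Log2 fold change with 95% interval (y axis) in infused loss over control fibroblasts for Mcm6 and the 5 tested genes downstream of it, by distance of the gene's midpoint from the start of Mcm6 (x axis, kb, positive in its direction of transcription). Mcm6 lies at -1.52 and the intervals of these 5 neighbours all hold 0.

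No gene of the related lists fell in infused loss fibroblasts. Of the helicase activation genes 0 of 11 passed after infusion (median log2 fold change 0.046). Of the fork and DNA synthesis genes 0 of 25 passed (0.071) and of the origin and loading genes 0 of 14 (0.048). Of the E2F, RB and cyclin genes 0 of 21 passed (0.044). The infused loss table does not list Orc2, Cdc7, Rfc1 and Chaf1a, and Prim2 was below its filter. Orc4 averaged 6.13 against 17.4 normalized counts there. In the uninjured table, which shares no scale with it, Orc4 averaged 1555 against 1648. Rbl2 averaged 2384 normalized counts in loss libraries against 3012 in controls (limma adjusted p = 0.184). Gins4, another GINS subunit, averaged 1410.4 normalized counts in loss libraries against 1005 in controls, and Pold1, the catalytic subunit of DNA polymerase delta, 441 against 582 (limma adjusted p = 0.220 and 0.230). Of 15 mitosis markers 0 passed at a median of 0.62, and the list lay at 0.13 and 1.16 in loss libraries against -0.95, 0.25 and 0.79 in controls. Of 11 G1 regulators 2 rose, at a list median of 0.18. Ccnd1 was 1.89-fold higher (1628 against 863 normalized counts, adjusted p = 0.0162) and Cdkn2b, which inhibits the kinases that cyclin D binds, 1.79-fold higher (1238 against 690, adjusted p = 0.0301).

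In uninjured hearts the comparison asks what loss does in resting fibroblasts. Of 9 members tested, 0 rose and 0 fell, where 3.58% of all 15544 genes passed, and 0 members were at an unadjusted p below 0.05. Mcm10 was below the filter on low values, at 25.3, 4.33 and 0 normalized counts in loss libraries against 0.958, 12.0 and 12.0 in controls. No member kept its groups apart, in either direction, where 14.1% of all genes did with loss higher and 13.6% with loss lower. The median log2 fold change was -0.048 against -0.012 over all genes.

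Mcm6 was at 1769, 1659 and 1587 normalized counts in uninjured loss libraries, against 1530.5, 1794 and 1617 in controls, and the groups lay on top of each other (log2 fold change 0.023, 95% interval -0.20 to 0.24). The intervals were narrow for Mcm4 (-0.32 to 0.18) and Mcm7 (-0.39 to 0.30) and wider for Mcm3 (-0.24 to 0.51), Mcm5 (-0.35 to 0.72) and Cdt1 (-1.06 to 0.86). Mcm2 had 419, 225 and 259.8 in loss libraries against 396, 425 and 351 in controls (-0.42, -0.96 to 0.12). Loss library 1 was among the controls for Mcm2 and the other 2 were below them. Gins2 had 116, 83.1 and 130.5 against 72.4, 56.5 and 109 (0.49, -0.26 to 1.25), and Cdc6 had 59.7, 14.9 and 28.0 against 26.7, 69.4 and 44.5 (-0.55, -1.87 to 0.77). Mural markers were lower in these loss libraries, at 9234 to 10774 against 14492 to 16345 normalized counts, with 4 of 7 fallen (Cspg4, Abcc9, Kcnj8 and Vtn). Sums of myeloid markers were narrowly higher, at 1336 to 2134 against 1186 to 1332, with 0 of 9 past the test. Adgre1 was above every control and the other myeloid members overlapped. Lyz2 averaged 514 against 293 normalized counts, while Csf1r and C1qb had negative log2 fold changes (-0.51 and -0.19). Endothelial sums overlapped, at 164 to 348 against 219 to 267, with 0 of 4 tested members past the test. Among those, Kdr and Tie1 were below every control, while Pecam1 and Egfl7 overlapped. Sums of erythroid and platelet markers ran from 201 to 1079 against 191 to 204 and overlapped, with 0 of 5 tested members past the test. The median log2 fold change of that list was 1.90, with Hba-a1 at 159 against 6.95 on average and Pf4 at 136 against 165. Its listed members all overlapped. The part of such cells in these values was not tested.

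Lists of the same machinery gave no calls without injury. This held for 0 of 14 origin and loading genes, 0 of 12 helicase activation genes, 0 of 28 fork genes, 0 of 20 E2F, RB and cyclin genes, 0 of 17 mitosis markers and 0 of 11 G1 regulators, with medians of -0.042, -0.11, -0.11, -0.203, -0.50 and 0.14. Skp2, an F-box protein that marks CDT1 for destruction, averaged 118 normalized counts in loss libraries against 192 in controls (limma adjusted p = 0.0918). Cdkn2b averaged 216 against 100.3, E2f2, an activating E2F factor, 2.31 against 21.4, and Pcna 1603 against 1353 (adjusted p = 0.0522, 0.107 and 0.144). Ccnd1 averaged 2108 (SD 747) against 1373 (SD 107), with each loss library above every control (limma adjusted p = 0.159). Wdhd1 averaged 84.0 against 149.7 and Gins1 12.0 against 34.1 (adjusted p = 0.136 and 0.161).

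**Figure D5:**
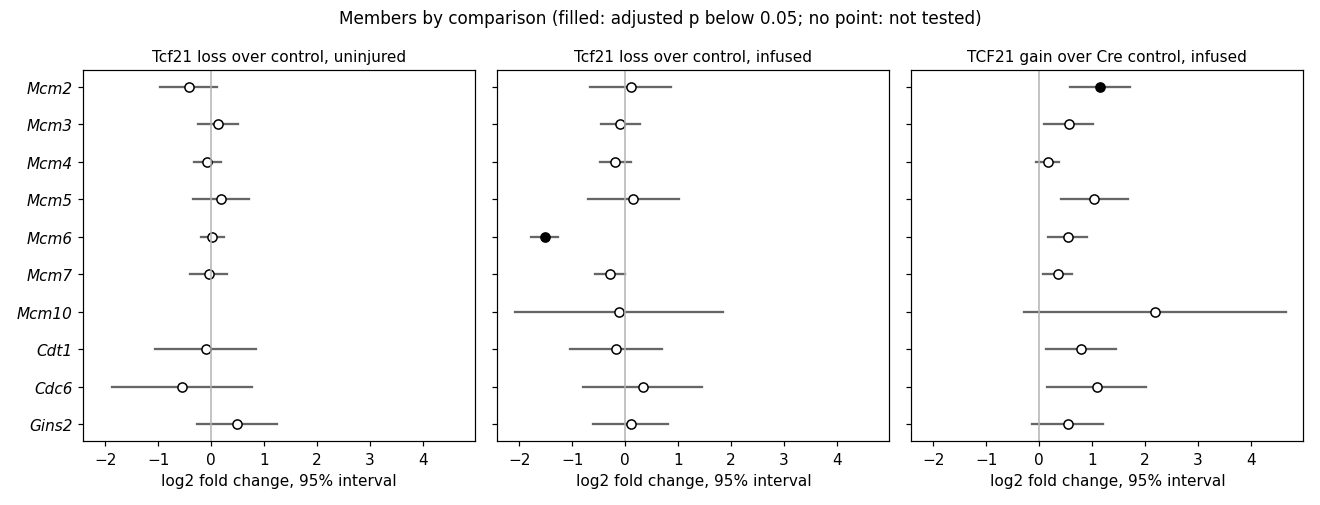
Log2 fold changes with 95% intervals (x axis, the same in all panels) of the members (y axis) in the 3 comparisons; filled points are past adjusted p below 0.05 and Mcm10 was not tested without injury. In the gain panel all 10 points lie right of 0, and in the infused loss panel Mcm6 lies at -1.52 with the other members around 0.

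Whether the loss effect differed with infusion was tested as a contrast of the effects in both tables. Of 9 members tested, 1 differed (Mcm6), where 0.149% of all 14130 genes did. The loss effect on Mcm6 was 1.55 lower on the log2 scale with infusion than without (difference -1.55, SE 0.137, 95% interval -1.85 to -1.24, limma adjusted p = 0.000722). It passed in all 13 alternative fits. Infused and uninjured libraries lie in separate tables, and the time after tamoxifen is given only for uninjured hearts. Tcf21 in loss libraries was also at 0.11 of its control mean with infusion and 0.18 without. Infusion, table, time after tamoxifen and depth of loss therefore cannot be told apart. For the other 8 members the difference ran from -0.38 (Gins2) to 0.88 (Cdc6), with adjusted p from 0.664 to 0.989 and wide intervals, such as -0.43 to 1.47 for Mcm2.

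Levels of the members, per kb of the longest transcript, kept a broad order in every group. In uninjured controls Mcm4 (445 normalized counts per kb, 415 to 469 over libraries) and Mcm6 (378, 351 to 412) came highest, with ranges just apart. Mcm7 (336, 324 to 343) and Mcm3 (218, 201 to 249) followed, also apart from their neighbours. Mcm2 (112, 100.4 to 122) and Mcm5 (88.4, 74.8 to 114) overlapped, as did Cdt1 (23.4, 20.8 to 27.8) and Gins2 (20.3, 14.5 to 27.9). Cdc6 (9.76, 5.55 to 14.5) and Mcm10 (1.71, 0.197 to 2.47) came lowest. In infused groups Mcm6 ranked highest in gain fibroblasts (823, 752 to 895) and in both control groups (448, 427 to 486 in the loss arm and 572, 461 to 658 in the gain arm, where its range touched that of Mcm4), and in infused loss fibroblasts it was the fifth (156, 149 to 162), within the ranges of Mcm2 and Mcm5.

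Correlation among the members over the 16 libraries was positive, but it differed by table. With each table centred on its own mean, all 45 pairs had a positive Pearson r, from 0.164 (Mcm6 with Gins2) to 0.875 (Mcm2 with Cdc6), at a median of 0.530. These libraries share tables and include the changed groups, so r is a description. Against the mean of the other 9 members, r over the 16 libraries was highest for Mcm2 (0.896) and lowest for Mcm6 (0.382). Within tables of only 5 or 6 libraries, r for the members ran from 0.78 to 0.996 in gain, from 0.112 to 0.999 in infused loss and from -0.56 to 0.895 without injury, where it was below 0 for Mcm3, Gins2, Cdt1 and Mcm5. Mcm6 had the highest of these in gain (0.996), the next to highest without injury (0.756) and the lowest in infused loss (0.112). Of 13930 genes tested in all tables, members left out, those most like the mean of the members over the 16 libraries were Ect2 (r = 0.923), Spire1 (0.920), Rrm2 (0.914), Foxm1 (0.912), Naa50 (0.911), Fbxo5 (0.901), Smc2 (0.895) and Spc24 (0.892). Rrm2, a subunit of ribonucleotide reductase, is on the fork list. It averaged 1134 normalized counts in gain libraries against 597 in controls (limma adjusted p = 0.111). Members entered these means without scaling to equal spread, so Mcm10, the most variable, weighed most. Its values without injury, below the filter, were included.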

How the data were processed

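RNA of flow-sorted mouse cardiac fibroblasts was amplified with a SMART-seq low-input kit, per the labels' protocols. The authors deposited 3 tables of normalized counts, a signal per gene that is not whole, made separately for each table. The submitters' processing notes list kallisto, DESeq2 and GRCm38. Their versions, the annotation and the use of strand: not given in the sources used here. Low values (0.5 to 6) lay within 0.03 of a whole step in 35.6% to 67.5% of cases, so whole reads were not recovered, no count model was fitted, and the depth in reads is unknown.

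Groups came from the titles. Values were taken as log2(value + 1), and genes whose table mean reached 10 were kept. Each comparison was fitted by limma (version 3.58.1, R 4.3.3) to its own groups, with no covariate and with eBayes using a mean-variance trend. Tests were two-sided, and calls are at a Benjamini-Hochberg adjusted p below 0.05 across every gene tested. This scale understates changes of low genes. Tables were normalized separately, so levels in different tables were only set side by side, and the contrast between both loss effects takes each effect within its own table. The members, the 6 gene lists and the marker lists were chosen with earlier results of these data known. Named genes were all members, Tcf21, some of the 4 genes per list and comparison with the smallest p, and the 8 most correlated genes; single marker genes, Gm20388 and the downstream neighbours of Mcm6 were named after their values were seen. Alternatives varied pseudocount, filter, scaling, variance model, weights and the replicate block, and left out each library. Positions are those of GENCODE vM21, and promoter windows those of RefSeq on GRCm38.p6.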

Additional observations from a re-analysis of the deposited data

Results flagged for a closer look

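The loss effect on Mcm6 differed between infused and uninjured fibroblasts (log2 difference -1.55, limma adjusted p = 0.000722): Mcm6 averaged 677 against 1951 normalized counts with infusion and 1672 against 1647 without, in loss and control libraries. Both infused loss libraries were below all 3 of their controls, and in uninjured hearts the groups overlapped. Infusion cannot be told apart here from table, time after tamoxifen or depth of Tcf21 loss.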

How the results depend on the processing

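Mcm6 kept its call in all 14 alternative fits of the infused loss comparison and in all 13 of the contrast between loss effects. The count of genes past the threshold, 557 without injury, 135 in infused loss and 637 in gain, was 94, 72 and 25 when no variance trend was fitted, 949, 308 and 1013 under library weights, and 227, 1462 and 1842 with a replicate block. With 1 library left out these counts were 88 to 875, 32 to 175 and 118 to 819, and that of the contrast (21) was 12 to 58. Members past the threshold in gain numbered 0 with a minimum mean of 50 and without the variance trend, and 0 to 1 with 1 library left out; members above every control there numbered 9 to 10, a range added after the data were seen. Same-numbered deviations correlated at -0.054 to 0.025 without injury, where not every library was closest to its own number. Pairing by replicate number was not seen there. They correlated at -0.042 to 0.18 in infused loss and at 0.062 to 0.095 in gain, where each gain library was closest to its own number. Deviations of 2 libraries from their group mean are mirror images, so these infused values cannot decide whether libraries were paired. With the block, Mcm2 in gain and Mcm6 in infused loss still passed (log2 fold change 0.91 and -1.46). A control with no same-numbered partner adds nothing to a block fit, so these calls rest on fewer libraries.

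Of 277 values of members under other settings, 271 kept direction and call and 2 lost the call (Mcm2 in gain, adjusted p = 0.0504 with a minimum mean of 50 and 0.168 with no variance trend; 0.0102 to 0.253 over all alternatives). The log2 fold changes that turned were those of uncalled members: with library weights Mcm6 without injury (-0.027) and Mcm2 in infused loss (-0.0047), and with the replicate block in infused loss Mcm10 (0.39), Cdt1 (0.050) and the members' median (0.19). With 1 library left out, values that spanned 0 without injury were the median (-0.12 to 0.028), Mcm3 (-0.031 to 0.23), Mcm4 (-0.12 to 0.027), Mcm6 (-0.028 to 0.086), Mcm7 (-0.15 to 0.13) and Cdt1 (-0.52 to 0.21). In infused loss they were the median (-0.26 to 0.25), Mcm2 (-0.20 to 0.38), Mcm3 (-0.21 to 0.013), Mcm5 (-0.18 to 0.49), Mcm10 (-0.98 to 0.74), Cdt1 (-0.50 to 0.14), Cdc6 (-0.12 to 0.66) and Gins2 (-0.15 to 0.36), and in the contrast the median (-0.36 to 0.027), Mcm4 (-0.26 to 0.027), Mcm5 (-0.37 to 0.30) and Cdt1 (-0.40 to 0.34). The cause was not tested.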
